A study of Homo sapiens with 4 samples.

Results

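The miRNAs described here are those with human miRBase names numbered 1200 or higher, the late part of a series in which numbers were given in the order of registration. They were read in extracellular vesicles (EVs) from MDA-MB-231, a human line established from a triple-negative breast cancer, labelled epithelial and WT. Cells grown in DMEM with fetal bovine serum were moved for 12 h to EV free DMEM (231 EV, 2 libraries) or to glucose free medium (231 -G EV, 2 libraries), and their EVs were spun down at 110000 × g over 70 min. Replicate 1 of each group came from RNA pretreated so that modified ends and bases could enter the library, with a size range of 14 to 40 nt. For replicate 2 of each group the labels name a TruSeq RNA kit for the RNA and the NEBNext small RNA kit for the library. They word the pretreatment for total RNA samples in general, so replicate 2 may have been pretreated too, and “pretreated” here names replicate 1 as against NEBNext, not a known difference in pretreatment. A replicate number therefore stands for a preparation shared by a pair of libraries (pair 1, pretreated, and pair 2, NEBNext), and the effect of the preparation cannot be told apart from whatever else differed between the replicates. Nothing in the labels says that replicates came from separate cultures, so p-values measure the spread between these libraries, which may be technical.

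The deposited data held a table for each replicate, with its own list of miRNAs. They listed 893 late-numbered names out of 1619 features. Of these 893, 434 had 0 reads, 357 had 1 to 4 reads and 102 had at least 5 reads summed over the 4 libraries. These 102 were taken as members, so the reads themselves chose them. Just outside the limit were 22 names with 4 reads, such as hsa-miR-1269b and hsa-miR-1913, and just inside were 10 with 5 reads, such as hsa-miR-6869-5p and hsa-miR-6773-5p. The pretreated libraries were shallow, with 18397 reads for 231 EV and 15597 for 231 -G EV, and the NEBNext libraries had 224966 and 170894. The limit of 5 reads thus stood for 272 and 321 CPM (counts scaled to a library total of 1000000) in replicate 1, but for 22.2 and 29.3 CPM in replicate 2. A member could pass through reads of a single preparation, so counts over the members that passed describe them and support nothing.

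A miRNA is cut from a hairpin, first by Drosha in the nucleus and then by Dicer in the cytoplasm. This leaves a short duplex of the 5p and 3p arms, of which usually 1 strand is loaded into Argonaute and pairs with target mRNAs through its seed, bases 2 to 8. Mirtrons are hairpins formed by whole short introns, released by splicing without Drosha. Many late-numbered entries came from deep sequencing of rare RNA, and some carry the sequence of a snRNA, snoRNA, tRNA or rRNA, so that reads given their names may be pieces of those RNAs.

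In these EVs the late-numbered miRNAs differed far more between the preparations than between the media. They took 6.94% (231 EV) and 10.7% (231 -G EV) of all reads in the pretreated pair, but 0.299% and 0.327% in the NEBNext pair. The members also differed between the preparations. Hsa-miR-3131, hsa-miR-5699-3p and hsa-miR-1246 were among the 10 leading members of pair 1 and had at most 2 reads in any NEBNext library, while both arms of hsa-miR-1307 led pair 2 and had at most 2 reads in any pretreated library. Between media, 0 members passed the test across replicates. Within pair 2, hsa-miR-1307 had 26.2% of its reads on the 5p arm in 231 EV and 78.5% in 231 -G EV.

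Of the 102 members, 90 had a mature sequence in RefSeq (GRCh38.p14). The sequences shown first are those of the leading members of each pair, on which the comparisons below turn, written 5′ to 3′ with the seed in capitals. The first 4 led pair 1 and the last 2 are the arms of hsa-miR-1307, which led pair 2.
hsa-miR-3131: uCGAGGACugguggaagggccuu
hsa-miR-5699-3p: uCCUGUCUuuccuuguuggagc
hsa-miR-5006-5p: uUGCCAGGgcaggagguggaa
hsa-miR-1224-5p: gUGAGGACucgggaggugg
hsa-miR-1307-5p: uCGACCGGaccucgaccggcu
hsa-miR-1307-3p: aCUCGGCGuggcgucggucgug

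Hsa-miR-3131 lies at chr2:219058725-219058747 on the minus strand, in an intron of IHH. Hsa-miR-5699-3p lies at chr10:641699-641720 on the minus strand, in an intron of DIP2C. Hsa-miR-5006-5p lies at chr13:41568355-41568375 on the minus strand, in an exon of VWA8. Hsa-miR-1224-5p lies at chr3:184241405-184241423 on the plus strand, and its hairpin fills a whole intron of VWA5B2, within 5 nt at each end. The arms of hsa-miR-1307 lie at chr10:103394341-103394361 (5p) and chr10:103394301-103394322 (3p) on the minus strand, in an exon of ATP5MD. Gene positions were taken from GENCODE release 29 on the same assembly.

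The second set holds members whose mature sequence also occurs, base for base, in an annotated RNA of another kind. There were 8 of these among the 90 members with a sequence (8.89%), against 1 of 312 other miRNAs with at least 5 reads (0.321%). The RNA types searched held mitochondrial but not nuclear tRNA, so a match to a nuclear tRNA could not be found. Each name below is followed by the stretch of the other RNA as DNA, with the bases that the miRNA shares in capitals.
hsa-miR-1246 in RNU2-1: tattaAATGGATTTTTGGAGCAGGgagat
hsa-miR-1248 in SNORA81: ACCTTCTTGTATAAGCACTGTGCTAAA
hsa-miR-1291 in SNORA2C: gTGGCCCTGACTGAAGACCAGCAGTtgtac
hsa-miR-12136 in MT-TS1: GAAAAAGTCATGGAGGCCatggg
hsa-miR-4485-3p in MT-RNR2: atgttTAACGGCCGCGGTACCCTAAccgtg

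Hsa-miR-1246, annotated at chr2:176601024-176601042 on the minus strand between genes, matched bases 94 to 112 of the 191 nt of RNU2-1, a gene of the U2 snRNA of the spliceosome, and further copies of that gene. Hsa-miR-1248 and hsa-miR-1291 matched snoRNAs at their own loci, as did hsa-miR-3651 in SNORA84, and hsa-miR-1843 matched the scaRNA SCARNA3 at its own locus. Such RNAs guide the modification of rRNA and snRNA. Hsa-miR-12136 and hsa-miR-4284 matched the mitochondrial tRNAs MT-TS1 and MT-TF, and hsa-miR-4485-3p matched the mitochondrial 16S rRNA MT-RNR2, at bases 893 to 912. A match does not tell which RNA a read came from.

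The share of the members in each library was compared first, to ask how far preparation and medium set it. In the pretreated pair the members had 1277 of 18397 reads in 231 EV, or 6.94% (95% Wilson interval 6.58 to 7.32), and 1662 of 15597 in 231 -G EV, or 10.7% (10.2 to 11.1). In the NEBNext pair they had 672 reads, or 0.299% (0.277 to 0.322), and 558 reads, or 0.327% (0.301 to 0.355). Both pretreated libraries stood above both NEBNext libraries. The share in replicate 1 was 23.2 times that in replicate 2 for 231 EV (95% exact conditional interval 21.1 to 25.6) and 32.6 times for 231 -G EV (29.6 to 36.0). All 893 late-numbered names, with no limit on reads, gave shares of 8.22%, 11.8%, 0.337% and 0.376% in the same order and ratios of 24.4 and 31.4. In these ratios a name not listed for a replicate adds no reads there. Over the 37 members listed for both replicates, the ratios were 16.6 (14.8 to 18.6) for 231 EV and 24.6 (22.1 to 27.5) for 231 -G EV. With 2 libraries a group no test across libraries was made. Reads copied by PCR and carrying no molecular identifier are not separate molecules, so the intervals and the tests on reads take in counting error alone.

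Between media, the member share was 1.54 times as high in 231 -G EV in pair 1 (1.43 to 1.65) and 1.09 times in pair 2 (0.975 to 1.22), the latter interval holding 1. The direction in pair 1 depended on 1 other miRNA. Hsa-miR-182-5p held 51.0% of 231 EV replicate 1, against 2.73% of 231 -G EV replicate 1 and 0.254% and 0.250% in replicate 2. Once it was taken out of the totals, the member share in pair 1 was 14.2% in 231 EV and 11% in 231 -G EV, giving a ratio of 0.774 (0.719 to 0.833), so the rise became a fall. Other markers moved with the preparation and with pair 1 as well. A list of 6 miRNAs of blood cells and serum took 20.1% and 42.8% of pair 1 but only 0.874% and 0.377% of pair 2, with 5 of the 6 detected in 231 EV replicate 1 and all 6 in each other library. Nearly all of this was hsa-miR-451a of red blood cells, at 19.4% and 40.8% of pair 1. Of the white blood cell miRNAs of the list, 2 went the other way, hsa-miR-142-3p with 0.0163% and 0.0192% of pair 1 against 0.381% and 0.190% of pair 2, and hsa-miR-223-3p with 0.0163% and 0.0128% against 0.223% and 0.0925%. The third, hsa-miR-150-5p, had 0% and 0.0385% against 0.0520% and 0.0275%, with no common direction. A list of 4 miRNAs of basal-like breast cancer cells, led by hsa-miR-21-5p, took 2.05% and 2.83% of pair 1 but 32.4% and 26.2% of pair 2, and hsa-miR-200c-3p and hsa-miR-141-3p, low in such cells, held at most 0.0641% together. Hsa-miR-31-5p of the basal-like list went the other way, with 0.0217% and 0.00641% of pair 1 against 0.00133% and 0.000585% of pair 2. The part of these RNAs in the member shares was not tested.

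**Figure D1:**
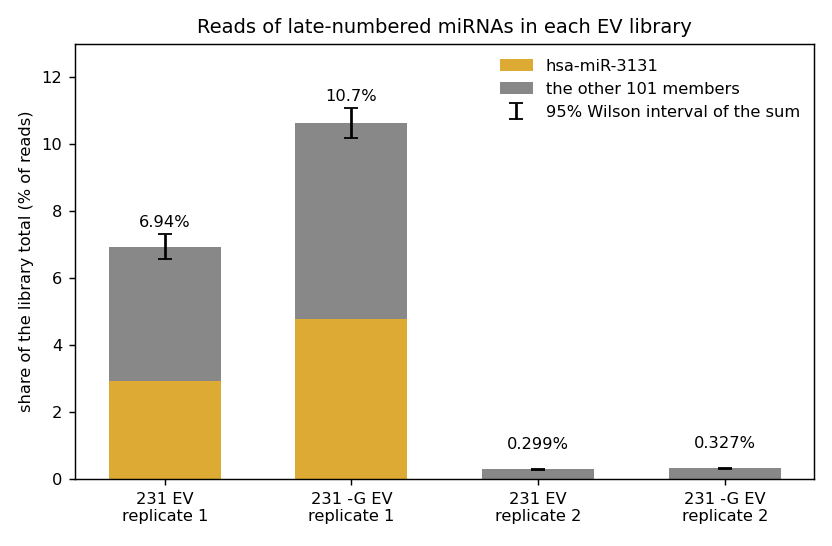
Bars give the reads of the late-numbered members as a percentage of the library total in each of the 4 EV libraries, split into hsa-miR-3131 and the other 101 members, with 95% Wilson intervals of the sum. The pretreated libraries (replicate 1) stand at 6.94% and 10.7%, the NEBNext libraries (replicate 2) at 0.299% and 0.327%.

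Hsa-miR-3131 alone made up much of the share of pair 1. Its reads numbered 542 (231 EV) and 746 (231 -G EV) in pair 1, then 0 and 1 in pair 2. This was 2.95% and 4.78% of the pretreated libraries, where it was the miRNA with the third most reads, and 42.4% and 44.9% of all member reads there. Its count of 0 in 231 EV replicate 2 allows up to 13.3 CPM, beside 29461 CPM in 231 EV replicate 1. Without it the members still held 4.00%, 5.87%, 0.299% and 0.326% of the 4 libraries, so the order of the preparations was the same, with ratios of 13.4 (12.0 to 14.9) and 18 (16.2 to 20.1).

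The members were unevenly listed. Of the 102, 37 were listed in both tables, 50 for replicate 1 alone and 15 for replicate 2 alone, while the other named miRNAs with at least 5 reads were mostly shared (295 in both tables, 9 for replicate 1 alone and 36 for replicate 2 alone). Reads lay in replicate 1 alone for 54 members, in replicate 2 alone for 27 and in both for 21. This mostly follows the listing, since 50 of the 54 and 15 of the 27 were not listed for the other replicate. Of the 37 listed in both tables, 4 had 0 reads in both libraries of replicate 2 and 12 in both of replicate 1. Hsa-miR-5699-3p was the 1 member above 0 in all 4 libraries. A name listed for a single replicate is unknown in the other. In the sums behind the limit and the shares it added no reads there, which counts it as 0. The edgeR fits left such names out, save in an alternative given below.

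**Figure D2:**
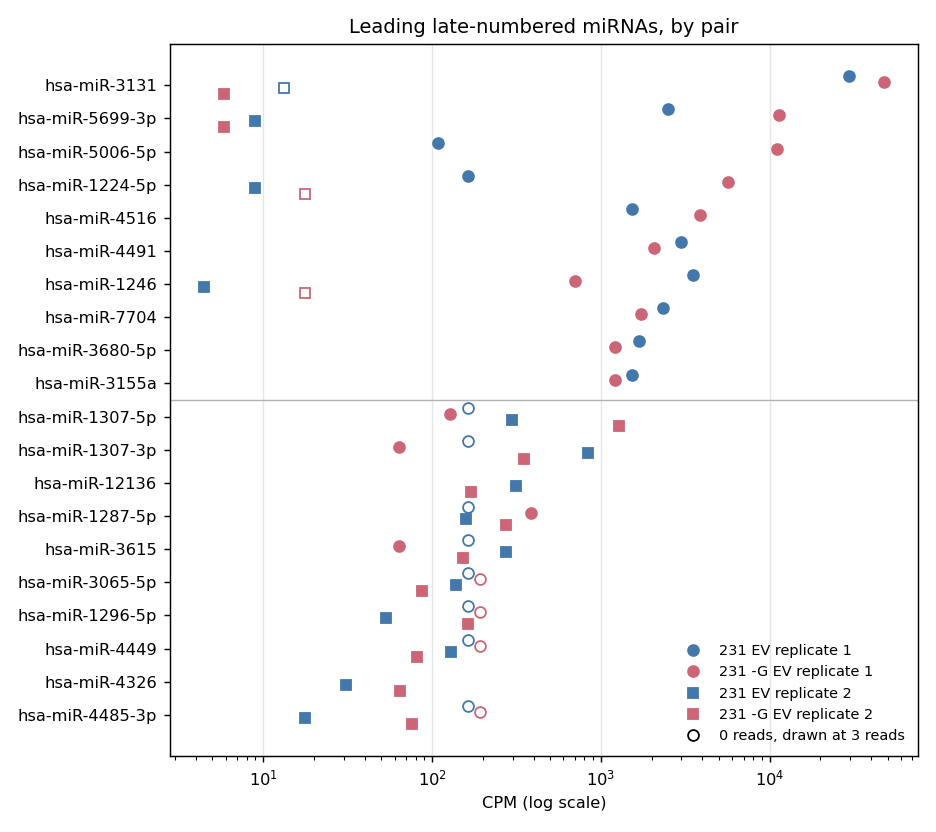
CPM (log scale) of the 10 members with the highest mean in pair 1 (upper block) and in pair 2 (lower block). Circles are pretreated and squares NEBNext libraries, blue is 231 EV and red 231 -G EV. Open symbols mark 0 reads, drawn at the 3 reads that a count of 0 allows, and a missing symbol means not listed for that replicate. Hsa-miR-3131 reaches 29461 and 47830 CPM in pair 1, and hsa-miR-1307-5p reaches 1281 CPM in 231 -G EV replicate 2.

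The preparations were next compared miRNA by miRNA, with edgeR's quasi-likelihood test on the counts, the medium as a term and Benjamini-Hochberg adjustment over the 384 miRNAs that both tables listed and that had reads in 2 or more libraries. Of the 36 members in this set, 9 were called higher in the pretreated libraries and 0 lower (adjusted p under 0.05 and more than 1 on the log2 scale). Over all 384, 29 (7.55%) were called higher and 37 (9.64%) lower. The median log2 fold change was 0.49 for the members and -0.75 for all 384. Since 5 reads stand for a higher CPM in the shallow pretreated libraries, a member that passed the limit through their reads had a high CPM there, and these counts are a description.

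The largest of the 9 was hsa-miR-3131, with 1288 reads over the pretreated libraries and 1 over the NEBNext libraries. The ratio of its shares was 14999, with a wide counting interval of 2687 to 592873 that follows from the single read (edgeR adjusted p 1.9e-15). Hsa-miR-5699-3p went from 46 reads (231 EV) to 176 (231 -G EV) in pair 1, with 2 and 1 in pair 2. It was high in both pretreated libraries and near the floor in both others, with a ratio of 862 (291 to 4210, edgeR adjusted p 4.39e-09). Hsa-miR-1246 had 65 and 11 reads, then 1 and 0, for a ratio of 885 (154 to 35411, edgeR adjusted p 3.22e-07). Its sequence is the one that also lies in U2 snRNA.

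Hsa-miR-1224-5p, a mirtron, had 3 and 88 reads in replicate 1 and 2 and 0 in replicate 2. Nearly all its reads were thus in 231 -G EV replicate 1. The ratio between preparations was 530 (143 to 4441), and the log2 fold change of 7.67 (edgeR adjusted p 4.93e-05) fell to 4.8 without that library, still with a call (edgeR adjusted p 0.0177). Hsa-miR-6747-3p had 10 and 11 reads in replicate 1, then 1 and 0, a ratio of 245 (39.3 to 10113). Hsa-miR-5010-3p had 12 and 1, then 0 and 1, a ratio of 151 (22.7 to 6434). Without 231 EV replicate 1, which held 12 of these reads, its log2 fold change went from 6.32 to 4.23 and the call was lost (edgeR adjusted p 0.196). The other 3 had 0 reads in both NEBNext libraries, so their folds were set against a floor of 3 reads over that group. Hsa-miR-3614-3p (5 and 4 reads) was 34.9-fold higher by that floor, and hsa-miR-3916 and hsa-miR-4699-5p (1 and 6 reads each) were 27.2-fold higher, while the exact intervals of the ratios had lower ends of 23 and 16.8. Without 231 EV replicate 2 the number called fell from 9 to 5, and hsa-miR-3614-3p, hsa-miR-3916, hsa-miR-4699-5p and hsa-miR-5010-3p were lost. The first 3 of these were lost without 231 -G EV replicate 2 as well. With limma on log2(CPM + 1) 0 members were called, with 23 at an unadjusted p under 0.05 and an adjusted p of 0.0568 for hsa-miR-3131, and DESeq2 called 9 higher and 0 lower.

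In the other direction 0 members were called. Hsa-miR-3065-5p (31 and 15 reads) and hsa-miR-4449 (29 and 14 reads) had reads in replicate 2 and 0 in both pretreated libraries, where the shallow depth allows ratios of up to 0.972 and 1.04. Among the conserved miRNAs, hsa-miR-1307-5p had 0 and 2 reads in replicate 1 and 67 and 219 in replicate 2, or 0, 128, 298 and 1281 CPM. On the log2 scale it differed by -3.81 (SE 1.5, edgeR adjusted p 0.0611). Hsa-miR-1307-3p had 0 and 1 reads, then 189 and 60, a log2 difference of -4.17 (SE 1.67, edgeR adjusted p 0.0679). Neither passed in this fit, and both were called lower with TMM scaling, with totals that leave out hsa-miR-182-5p or with no medium term. They were also called without 231 -G EV replicate 1, which held their only pretreated reads, with log2 differences of -9.77 for the 5p and -9.37 for the 3p arm (edgeR adjusted p 0.00657 and 0.0125). Each other library left out gave no call, with -2.27 to -4.36 for the 5p and -3.20 to -4.75 for the 3p arm (edgeR adjusted p 0.0532 to 0.509 and 0.0701 to 0.239). The weakest 5p value was without 231 -G EV replicate 2, and without 231 EV replicate 1 it was -2.61. Hsa-miR-3615 had 0 and 1 reads, then 62 and 26, and a ratio of 0.132 (0.00331 to 0.757), but its edgeR adjusted p was 0.384. Hsa-miR-1287-5p had 0 and 6 reads, then 36 and 47, and its ratio of 0.842 (0.300 to 1.91) held 1.

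**Figure D3:**
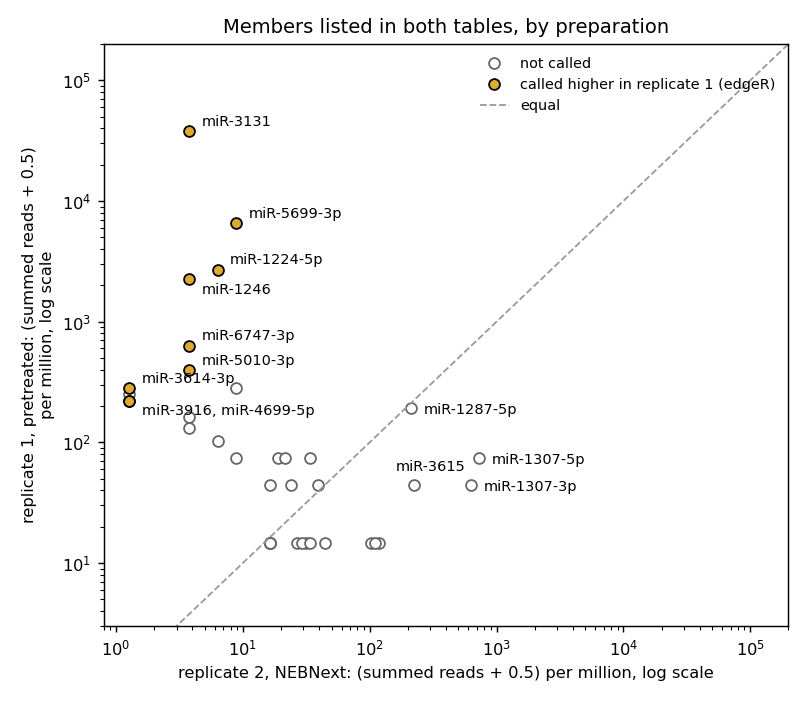
Each point is 1 of the 37 members listed in both tables, with its summed reads plus 0.5, scaled to CPM, in the NEBNext pair (x axis) and in the pretreated pair (y axis), both on log scales. Filled points are the 9 members called by edgeR, all above the line of equal values, and both arms of hsa-miR-1307 lie below it without a call.

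Across replicates, edgeR with the replicate number as a block called 0 of 36 members higher and 0 lower in 231 -G EV, as it did for all 384 miRNAs (0% in each direction). Before adjustment 5 miRNAs had a p under 0.05, and 1 of them was a member. This was hsa-miR-1224-5p, with a log2 fold change of 3.06 (SE 1.51, p 0.0434, adjusted p 0.999), carried by the 88 reads of 231 -G EV replicate 1. In pair 2 it had 2 and 0 reads, too few to give a direction. DESeq2 and limma called 0 members as well, with 1 and 0 at an unadjusted p under 0.05. Hsa-miR-1246 had a log2 fold change of -2.32 (SE 1.33), hsa-miR-1307-5p of 2.37 (SE 1.31), hsa-miR-5699-3p of 1.47 (SE 1.15) and hsa-miR-3131 of 0.94 (SE 1.05), all with an edgeR adjusted p of 0.999. The median log2 fold change was -0.05 for the members and 0.20 for all miRNAs tested.

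The reads were therefore also compared within each pair by a two-sided Fisher's exact test, adjusted over all miRNAs with a read in the pair. Such a test compares 2 libraries and not the media, and it includes members listed for a single replicate. In pair 1, of 75 members with a read 12 were higher and 9 lower in 231 -G EV, against 53 (7.91%) and 12 (1.79%) of all 670 miRNAs. Their median ratio was 0.944, against 1.18 for all. When totals left out hsa-miR-182-5p, 5 members were higher and 23 lower, against 18 (2.69%) and 34 (5.08%) of all 669 miRNAs, so the balance of directions followed the scaling.

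Among the members with reads in both libraries of pair 1, hsa-miR-5006-5p had the highest ratio, rising from 2 reads in 231 EV to 172 in 231 -G EV. This was 109 against 11028 CPM, a ratio of 101 (27.7 to 844, Fisher's exact test, adjusted p 2.9e-53), or 51.1 (13.9 to 426) by totals without hsa-miR-182-5p. The name was not listed for replicate 2, so no other library bears on it. Hsa-miR-1224-5p, with 3 and 88 reads, had a ratio of 34.6 (11.5 to 171) and of 17.4 without hsa-miR-182-5p. Hsa-miR-5699-3p, with 46 and 176 reads, had a ratio of 4.51 (3.25 to 6.39) and of 2.27 (1.64 to 3.22) without it. Hsa-miR-4695-5p, whose hairpin also fills a whole intron, in ALDH4A1, had 0 and 31 reads, 12.2-fold higher against a floor of 3 reads, with a lower end of the exact interval of 9.33, or 4.7 without hsa-miR-182-5p. Hsa-miR-4520-3p had 1 and 23 reads, a ratio of 27.1 (4.41 to 1118) and of 13.7 (2.22 to 563) without hsa-miR-182-5p. These 5 were higher by both totals.

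The other 7 were not. Hsa-miR-3131 had a ratio of 1.62 (1.45 to 1.82) by the library totals, but of 0.818 (0.731 to 0.916, Fisher's exact test, adjusted p 0.00558) without hsa-miR-182-5p, when it was called lower. Hsa-miR-4516, with 28 and 60 reads, had a ratio of 2.53 (1.59 to 4.11) that became 1.27 (0.801 to 2.07). Hsa-miR-3960, with 2 and 17 reads, and hsa-miR-6165, hsa-miR-3158-3p, hsa-miR-6718-5p and hsa-miR-5003-5p, with 0 reads in 231 EV and 8 to 10 in 231 -G EV, lost the call, with Fisher's exact adjusted p from 0.179 to 0.266.

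All 9 members called lower in pair 1 were lower by both totals. Hsa-miR-1246 had 65 and 11 reads, 5.01-fold lower in 231 -G EV by the library totals. Its ratio was 0.101 (0.0479 to 0.192) without hsa-miR-182-5p. Hsa-miR-12120 had 41 and 3 reads, a ratio of 0.0863 (0.0171 to 0.271) and of 0.0435 without hsa-miR-182-5p. Hsa-miR-8055 had 40 and 3 reads, a ratio of 0.0885 (0.0175 to 0.278) and of 0.0446 without it. The values that follow are by the library totals. Hsa-miR-4672 (21 and 1), hsa-miR-4700-5p (15 and 1) and hsa-miR-5010-3p (12 and 1) had ratios of 0.0562 (0.00136 to 0.349), 0.0786 (0.00187 to 0.511) and 0.0983 (0.00230 to 0.664). Hsa-miR-2681-3p had 13 and 0 reads, 3.67-fold lower against a floor of 3 reads, with an exact interval of the ratio from 0 to 0.387. The remaining 2 were hsa-miR-6511a-5p and hsa-miR-6511b-5p, whose counts were the same, 17 and 2.

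**Figure D4:**
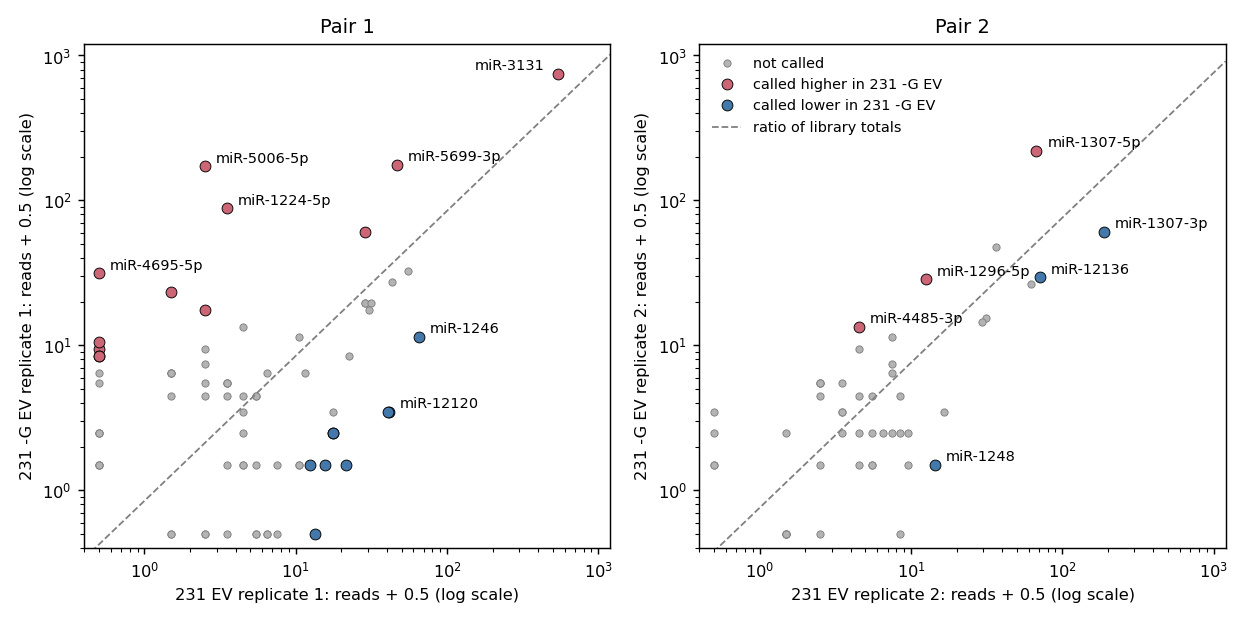
Reads plus 0.5 of each member in 231 EV (x axis) and 231 -G EV (y axis) of pair 1 (left) and pair 2 (right), on log scales, with the ratio of library totals as a dashed line. Red points were called higher in 231 -G EV and blue points lower (Fisher's exact test), 12 and 9 in pair 1 and 3 and 3 in pair 2.

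Some names cannot be read apart. Mature sequences of the 2 pairs of members that had equal counts and also share a long run of bases are shown here, with the seed in capitals.
hsa-miR-6511a-5p: cAGGCAGAaguggggcugacagg
hsa-miR-6511b-5p: cUGCAGGCagaaguggggcugaca
hsa-miR-3155a: cCAGGCUCugcagugggaacu
hsa-miR-3155b: cCAGGCUCugcaguggga
The first 2 share a run of 21 nt but not the seed, since hsa-miR-6511b-5p starts 3 bases earlier. The last 2 share 18 nt, the whole of hsa-miR-3155b, and were the 1 pair of members with the same seed, CAGGCUC. Hsa-miR-3155a and hsa-miR-3155b both had 28 reads in 231 EV and 19 in 231 -G EV of replicate 1. With each pair of names counted once, the member share was 6.70% and 10.5% in pair 1.

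In pair 2, 3 of 48 members were higher in 231 -G EV and 3 lower, or 6.25% each, against 61 (9.87%) and 54 (8.74%) of all 618 miRNAs. The median ratio was 0.658 for the members and 0.938 for all. Hsa-miR-1296-5p had 12 and 28 reads, 53.3 and 164 CPM, a ratio of 3.07 (1.51 to 6.63, Fisher's exact test, adjusted p 0.00511). Hsa-miR-4485-3p, the one shared with mitochondrial 16S rRNA, had 4 and 13 reads, a ratio of 4.28 (1.32 to 18). Hsa-miR-12136, shared with mitochondrial MT-TS1, had 71 and 29 reads and went the other way, with a ratio of 0.538 (0.336 to 0.839). Hsa-miR-1248, shared with SNORA81, had 14 and 1 reads, a ratio of 0.0940 (0.00222 to 0.618). The 2 other calls were the arms of hsa-miR-1307. All 6 kept their call by totals without hsa-miR-182-5p.

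The arms of hsa-miR-1307 moved in opposite directions in pair 2. The 5p arm had 67 reads in 231 EV and 219 in 231 -G EV, 298 and 1281 CPM, a ratio of 4.30 (3.26 to 5.75, Fisher's exact test, adjusted p 6.6e-29). The 3p arm had 189 and 60 reads, 840 and 351 CPM, a ratio of 0.418 (0.307 to 0.561, Fisher's exact test, adjusted p 5.8e-09). Both arms together rose less, from 256 to 279 reads, a ratio of 1.43 (1.21 to 1.71). The 5p share of the hairpin thus went from 26.2% (21.2 to 31.9) to 78.5% (73.3 to 82.9). The arm share was examined after these values were seen, for every hairpin with both arms read. Of 142 hairpins in pair 2, 17 (12.0%) differed between the libraries by Fisher's exact test, and in pair 1 0 of 76 (0%). For hsa-miR-1307 the odds ratio was 10.2 (6.78 to 15.7, Fisher's exact test, adjusted p 6.1e-33). Among the 96 hairpins with at least 20 reads in each library of pair 2, its change of 52.3 percentage points ranked 1, ahead of 28.6 points for hsa-miR-105 and a median of 2.02 points. In pair 1 the hairpin had 0 reads in 231 EV, and 2 reads of the 5p and 1 of the 3p arm in 231 -G EV, so a shift was not detectable there.

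**Figure D5:**
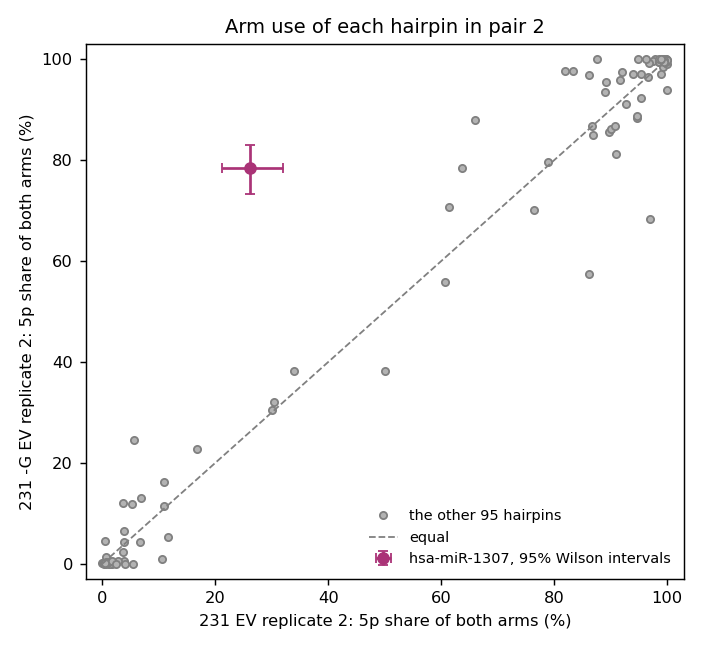
The 5p share of the reads of both arms in 231 EV (x axis) and 231 -G EV (y axis) of replicate 2, for the 96 hairpins with at least 20 reads in each library. Hsa-miR-1307 is drawn with 95% Wilson intervals and lies at 26.2% and 78.5%, away from the dashed line of equal shares.

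The members were then grouped by their origin. Of the textbook mirtrons, 12 names were listed, 4 had reads and 2 were members. Hsa-miR-1224-5p is given above, and hsa-miR-1227-5p, whose hairpin fills an intron of PLEKHJ1, had 2 and 5 reads in replicate 1 and was not listed for replicate 2. Together they held 0.0272% and 0.596% of pair 1 and 0.000889% and 0% of pair 2. In pair 1, 1 of the 2 was called higher and 0 lower, beside 7.91% and 1.79% of all 670 miRNAs. Between preparations the 1 tested was called higher, beside 7.55% of all 384.

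Of the names known to overlap other structured RNA, 13 were listed, 12 had reads and 7 were members. These 7 held 0.370% and 0.0705% of pair 1, nearly all of it hsa-miR-1246, and 0.0204% and 0.0135% of pair 2. Between preparations, 1 of 5 was called higher and 0 lower, beside 7.55% and 9.64% of all 384, with a median log2 fold change of -0.34 against -0.75 for all. Besides those described, hsa-miR-1260b had 8 and 0 reads and hsa-miR-3651 4 and 1 reads in pair 2, both unlisted for replicate 1. Hsa-miR-4454 had 2 and 0 reads in pair 1 and 7 and 6 in pair 2, and hsa-miR-1291 had 0 and 0, then 8 and 2. Over the 8 members with an exact match, the share in 231 -G EV was 0.232 times that in 231 EV in pair 1 (0.118 to 0.425) and 0.689 times in pair 2 (0.489 to 0.961), but a different member carried each value. In pair 1, where 5 of the 8 were listed, hsa-miR-1246 had 65 of the 66 reads of 231 EV and 11 of the 13 of 231 -G EV. In pair 2, hsa-miR-12136 had 71 of 107 and 29 of 56, while hsa-miR-4485-3p went up. The 3 with mitochondrial matches held 0.0347% and 0.0275% of pair 2. In pair 1 the 1 of them that was listed, hsa-miR-4485-3p, had 0 reads.

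The conserved hairpins were the main late-numbered miRNAs of the NEBNext pair. Of these, 15 names were listed, 13 had reads and 7 were members. The 7 made up 56.2% (231 EV) and 68.6% (231 -G EV) of the member reads in replicate 2, but 0% and 0.602% in replicate 1. As shares of the library they held 0.168% and 0.224% in pair 2, with a ratio of 1.33 (1.15 to 1.54), and 0% and 0.0641% in pair 1, where the 0 reads of 231 EV allow up to 163 CPM. Most reads of pair 2 were of hsa-miR-1307, with 256 of the 378 in 231 EV and 279 of the 383 in 231 -G EV. Its 5p arm rose from 67 to 219 reads and its 3p arm fell from 189 to 60. The median ratio of the 7 in pair 2 was 0.552, against 0.938 for all 618 miRNAs. In pair 2, 2 of the 7 were called higher and 1 lower, beside 9.87% and 8.74% of all 618. Between preparations 0 of 6 were called, beside 7.55% higher and 9.64% lower of all 384, with a median log2 fold change of -3.79 against -0.75. Hsa-miR-1301-3p had 5 and 1 reads in pair 2 and 0 in pair 1. Hsa-miR-1306-5p had 7 and 2 reads in pair 2 and was not listed for replicate 1.

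What the members share beyond the rule was described last. Their median GC content was 59.1% (quartiles 50.0 to 67.8) over the 90 with a sequence, against 45.5% (40.9 to 54.5) over 312 other miRNAs with at least 5 reads, while the median length was 22 nt in both. By listing, the median GC content was 61.9% for members listed for replicate 1 alone, 57.4% for those in both tables and 58.3% for those listed for replicate 2 alone. Hsa-miR-7704 (84.2% GC, 43 and 27 reads in pair 1) and hsa-miR-4516 (76.5% GC) are among the GC-rich members listed for replicate 1 alone. Hsa-miR-4491 (55 and 32 reads) and hsa-miR-3680-5p (31 and 19 reads) were further leading members of pair 1. Neither was called there by the library totals, and both were called lower in 231 -G EV by totals without hsa-miR-182-5p, with ratios of 0.346 and 0.364, as was hsa-miR-7704 with 0.373. In pair 2, hsa-miR-3065-5p (31 and 15 reads), hsa-miR-4449 (29 and 14 reads) and hsa-miR-4326 (7 and 11 reads) were among the 10 leading members without a call. By position, 3 members filled a whole intron, 17 lay in an exon and 36 in an intron of a gene on the same strand, 16 were antisense to a gene, 8 lay between genes and 10 had no hairpin entry. The members were mostly thin. Only 55 had 10 reads or more and 6 had 100 or more, and of the members detected in each library between 34.1% and 50.0% had at most 3 reads.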

How the data were processed

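Small RNA sequencing of MDA-MB-231 EVs gave 2 libraries of each medium. The authors deposited read counts for each mature miRNA, beside scaled values headed CPM in one table and TPM in the other. The deposited TPM had no length term and equalled CPM, so both are called CPM. The study's methods describe trimming, selection of 18 to 32 nt, removal of other RNA classes by Rfam, Bowtie2 and miRBase, without separating the preparations. The submitters' processing notes name hg38. Because removal of other RNA and the handling of reads that fit several names set which late-numbered names receive reads, these counts depend on it.

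Members and lists were chosen with earlier results of these data known. From the counts, shares with Wilson intervals, ratios with exact conditional intervals, two-sided Fisher's exact tests (SciPy 1.17.1) and edgeR 4.0.16 quasi-likelihood fits (R 4.3.3, medium plus replicate) were computed and tested on simulated data. DESeq2 1.42.0, limma 3.58.1 (log2(CPM + 1)), TMM scaling, other filters, other totals and left-out libraries were alternatives. Named were the 10 members with the highest mean CPM of each pair, called members (at most 12 per comparison by adjusted p, with all calls of pair 1 added after their values were seen), list members and members with a shared seed. The pairing came from the labels, and deviations of same-numbered libraries had a correlation of 0.586 across 384 miRNAs. RefSeq sequences (GRCh38.p14) matched 1423 of 1619 names. Its hairpins matched GENCODE coordinates for 1016 of 1025 symbols. Depth sets the precision: 1 read came to 54.4 and 64.1 CPM in pair 1, and to 4.45 and 5.85 CPM in pair 2.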

Additional observations from a re-analysis of the deposited data

How the results depend on the processing

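The replicate number marks a shared preparation, so the medium was tested with it as a block. With no replicate block, 0 of 36 members were called, as with it. The 0 calls between media held under all 8 alternatives, with 0 to 5 members at an unadjusted p under 0.05. Between preparations 0 members were called with limma, 1 of 1 among miRNAs above 0 in all 4 libraries, 47 of 90 when a name listed in 1 table counted as 0 in the other, and 14 (12 higher, 2 lower) with no medium term. Leaving out a library gave 5 to 11 calls, fewest without 231 EV replicate 2. TMM and totals without hsa-miR-182-5p each gave 9 higher and 2 lower. Within pair 1, totals without hsa-miR-182-5p turned 12 higher and 9 lower into 5 and 23, and the ratio of hsa-miR-3131 into 0.818. Testing names with 5 or more reads gave 14 and 13 there, and 4 and 5 within pair 2.

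The member share in 231 EV replicate 1 was 14.2% without hsa-miR-182-5p in its total and 23.5% without hsa-miR-451a as well, and in 231 -G EV replicate 1 it was 18.9% by the latter. The ratio in pair 1 turned to 0.774 and 0.804 by these totals. In the order 231 EV and 231 -G EV of replicate 1, then of replicate 2, the shares were 6.39%, 10%, 0.269% and 0.298% for the 55 members with 10 or more reads. They were 8.22%, 11.8%, 0.337% and 0.376% for all 459 names with a read, and 3.81%, 6.94%, 0.23% and 0.282% for the 37 members in both tables, whose ratios were 1.82 in pair 1 and 1.23 in pair 2. Without hsa-miR-3131, an alternative chosen after seeing the data like the names counted once and the arm shares, they were 4% and 5.87% in pair 1. Every alternative kept both pretreated libraries above both NEBNext libraries.

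Of 147 alternative fold changes of 14 members between preparations, 120 kept direction and call, 17 lost the call, 8 gained it and 2 changed sign. The latter were both for hsa-miR-1287-5p. Its main value was -0.66 on the log2 scale, and its values with a library left out ran from -7.91 to 0.83. Of 55 between media, 5 changed sign. Hsa-miR-1307-3p went to 2.38 with limma, and hsa-miR-3131 to -0.04 with totals lacking hsa-miR-182-5p. Single pairs were also compared on log2(CPM + 1), with no test. The log2 fold change was 5.10 (pair 1) and -3.31 (pair 2) for hsa-miR-1224-5p, and 6.02 and -1.26 for hsa-miR-1307-3p. For hsa-miR-5699-3p it was 2.17 and -0.53. The -3.31 rests on 2 and 0 reads, the 6.02 on 0 and 1, and the -0.53 on 2 and 1, too few to give a direction. The cause of these changes was not tested. Depth limits pair 1 most, where 1 read stood for 54.4 and 64.1 CPM.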
